A study of Homo sapiens with 32 samples.

Results

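The 26S proteasome subunit genes were followed in LNCaP and C4-2B cells under endoplasmic reticulum (ER) stress and after knockdown of MOCOS. The members were all rows of the gene table whose symbol begins with PSMA, PSMB, PSMC or PSMD and ends in a number, which took 39 of 29744 genes and left out pseudogenes. LNCaP is a human prostate cancer line that responds to androgen, and C4-2B is its derivative that grows under castration. In each line there were 4 groups of 4 libraries: siMOCOS cells with thapsigargin (TG), siMOCOS cells without TG, siCTRL cells with TG, and siCTRL cells without TG. siMOCOS is siRNA against MOCOS, the molybdenum cofactor sulfurase, and siCTRL is a control siRNA, so all cells were transfected. TG blocks the SERCA calcium pump and so empties the ER of calcium. Cells without TG received vehicle, and all cells grew in RPMI medium with serum. Neither TG dose nor time appears in the labels. By the labels each siMOCOS group pools 2 siRNAs, used for 2 libraries each, which the columns do not tell apart. The 4 were therefore taken as 1 group, and a number given to a siMOCOS library is that of its column. In all 4 siMOCOS groups libraries 1 and 2 were alike and libraries 3 and 4 were alike, with a chi-square per gene of 4.96 to 22.8 within these pairs and 19.8 to 84.3 across them. The errors of every siMOCOS comparison count the 4 as separate replicates all the same. The submitters call the replicates biological. Nothing else says how they were grown, so p-values measure the spread between these libraries.

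The proteasome degrades proteins tagged with ubiquitin. Its barrel-shaped 20S core has an outer ring of alpha subunits (PSMA genes), which gates the entrance, and an inner ring of beta subunits (PSMB genes), of which PSMB5, PSMB6 and PSMB7 hold the chymotrypsin-like, caspase-like and trypsin-like cutting sites. In immune cells and after interferon, PSMB8, PSMB9 and PSMB10 take their places and form the immunoproteasome. The 19S particle caps the core: its base holds a ring of ATPases that unfold the substrate (PSMC genes) and large scaffold or ubiquitin-binding subunits (PSMD1, PSMD2, PSMD4), and its lid includes PSMD14, the enzyme that removes the ubiquitin chain. PSMD5, PSMD9 and PSMD10 are not part of the finished particle but are chaperones that assemble the base. When proteasome activity falls short, the transcription factor NRF1 (gene NFE2L1), which is made at the ER membrane, raises subunit genes together through antioxidant response elements in their promoters. ER stress sends misfolded proteins out of the ER to the proteasome.

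Promoters are shown because subunit genes are known for shared promoter elements, while the members described below did not all move the same way. The 250 bases before the transcription start were taken from RefSeq (GRCh38.p14) for PSMA2 and PSMB3, 20S genes lower with TG in both lines, for PSMB5, which was called lower in LNCaP, and for PSMD5, the base chaperone that rose in both. Capitals mark matches on either strand to TGACNNNGC, the core of the antioxidant response element, or to CCAAT, the CCAAT box. The windows are PSMA2 at chr7:42932175-42932424 on the minus strand, PSMB3 at chr17:38752491-38752740 on the plus strand, PSMB5 at chr14:23035221-23035470 on the minus strand and PSMD5 at chr9:120842923-120843172 on the minus strand, each written 5′ to 3′ along the gene.
PSMA2: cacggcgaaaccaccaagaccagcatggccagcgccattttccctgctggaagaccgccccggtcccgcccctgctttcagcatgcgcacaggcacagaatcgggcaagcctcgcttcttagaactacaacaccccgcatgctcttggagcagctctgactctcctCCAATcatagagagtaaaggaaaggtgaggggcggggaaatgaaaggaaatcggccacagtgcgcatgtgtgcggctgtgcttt
PSMB3: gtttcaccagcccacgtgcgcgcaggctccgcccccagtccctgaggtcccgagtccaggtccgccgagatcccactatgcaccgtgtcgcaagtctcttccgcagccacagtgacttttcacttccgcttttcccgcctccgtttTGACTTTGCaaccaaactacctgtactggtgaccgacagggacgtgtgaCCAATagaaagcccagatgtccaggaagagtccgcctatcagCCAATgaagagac
PSMB5: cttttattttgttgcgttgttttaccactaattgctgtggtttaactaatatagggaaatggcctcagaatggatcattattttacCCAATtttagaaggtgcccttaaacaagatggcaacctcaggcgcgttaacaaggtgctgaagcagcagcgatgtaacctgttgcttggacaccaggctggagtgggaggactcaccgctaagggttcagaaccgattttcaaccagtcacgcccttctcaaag
PSMD5: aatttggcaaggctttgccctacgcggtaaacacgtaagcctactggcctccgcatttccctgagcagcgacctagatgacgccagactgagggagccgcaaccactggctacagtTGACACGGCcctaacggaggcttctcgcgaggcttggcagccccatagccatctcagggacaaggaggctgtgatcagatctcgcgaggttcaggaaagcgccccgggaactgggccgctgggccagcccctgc
The RefSeq table held 34 of the 39 members, with 41 windows, since some members have more than 1 start. PSMA7, PSMB1, PSMB6, PSMB7 and PSMD4 were not among them. TGACNNNGC lay in 8 of the 41 windows (19.5%), 1 each for 8 members, against 10.9% of 35116 promoters of the same length. Those members were PSMA4, PSMB3, PSMB9, PSMC5, PSMD3, PSMD5, PSMD9 and PSMD12, with PSMD9 holding a second match. The windows of the PSMA4 and PSMC5 matches precede a later start and lie within the gene. CCAAT lay in 17 windows (41.5%), against 32% of all promoters, and the 2 elements did not overlap in the windows printed. No member window held TGACGTGG, the unfolded protein response element, found in 0.612% of all promoters, or TGATGNAA, an amino acid response element, found in 3.14%. None held the ER stress response element, which includes a CCAAT and lay in 0.0740% of all promoters. A match is only a run of letters in this window.

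Both PSMB3, which was lower with TG, and PSMD5, which was higher, carried a TGACNNNGC match. So did PSMA4, which was called lower in LNCaP, and PSMD3, which was not called with TG in either line. The match is printed with 10 bases on each side for these 4 genes, at chr17:38752627-38752655 for PSMB3, chr9:120843038-120843066 for PSMD5, chr15:78540650-78540678 for PSMA4 and chr17:39980760-39980788 for PSMD3.
PSMB3: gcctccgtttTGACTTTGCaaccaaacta
PSMD5: tggctacagtTGACACGGCcctaacggag
PSMA4: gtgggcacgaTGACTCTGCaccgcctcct
PSMD3: tcccctttgtTGACTCGGCcatcggcctg
The 3 free letters of the element differed between all 4 genes.

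Library totals ran from 7507000 to 27089000 counts. MOCOS stood between 2.37 and 19.8 CPM, which are counts brought to 1 depth with TMM factors computed within a line, in the siMOCOS libraries and between 22.6 and 96.4 CPM in the siCTRL libraries. In each line and drug the ranges of MOCOS did not overlap. The ER stress genes HSPA5 and DDIT3 rose with TG in siCTRL cells, by 1.55 and 3.31 on the log2 scale in LNCaP and by 1.05 and 2.84 in C4-2B. All 10 markers of luminal prostate epithelium were at or above 5 CPM in every library. All 5 leukocyte markers were below 1 CPM in every library, with a summed level of at most 0.259 CPM, which bears on the immunoproteasome genes below. Of the endothelial and fibroblast markers 2 of 3 and 3 of 4 were also below 1 CPM in every library. Of the basal and neuroendocrine markers 2 of 3 and 1 of 2 were. The exceptions VWF, COL1A1, TP63 and SYP reached 8.71, 23.1, 3.65 and 21.5 CPM. Libraries differed in how long and short transcripts were recovered. In C4-2B, siCTRL replicate 2 and siCTRL TG replicate 3 were taken as standing apart: over 12654 genes, which are not replicates, their log2 distance to the group mean had the most positive correlation with transcript length (r = 0.365 and 0.429). The median 20S ring subunit lay −0.443 and −0.370 log2 units from the group mean in these libraries. Other C4-2B libraries went as far in the other direction with length, siCTRL replicate 4 (r = −0.353) and siCTRL TG replicate 2 (r = −0.365), or further with GC content, siCTRL replicate 1 (r = −0.562) and siMOCOS TG library 3 (r = −0.497). Their median ring subunit lay 0.126, 0.208, 0.067 and −0.263 log2 units from the group mean. In LNCaP, siCTRL TG replicates 2 and 4 were taken as standing apart. Over 12404 genes they had the most negative and the most positive correlation with length (r = −0.300 and 0.278). They deviated in opposite directions, by 0.180 and −0.169 for the median ring subunit. The LNCaP siMOCOS libraries 1 and 4 went nearly as far, by −0.156 and 0.151, and were kept. Leaving out the libraries that stood apart is thus no check independent of the ring values.

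Expression in siCTRL cells without TG was first compared between members, as CPM per kb of 1 transcript per gene. This was the longest one annotated as principal by APPRIS, else the longest one. The members took 0.455% ± 0.0163 of all counts in LNCaP and 0.581% ± 0.0622 in C4-2B (SD, n = 4 each). PSMA6, an alpha subunit, had 246 CPM per kb in LNCaP, the highest there, and 229 in C4-2B. PSMC5, an ATPase of the base, had 182 CPM per kb in LNCaP and 287 in C4-2B, the highest there. The median alpha subunit had 77.4 and 68.6 CPM per kb in LNCaP and C4-2B, the median beta ring subunit 68.4 and 96.6, the median base ATPase 84.4 and 116, and the median lid subunit 41.3 and 49.6. The base chaperones lay below most structural subunits, with PSMD5 at 6.58 CPM per kb in LNCaP and 10.8 in C4-2B. The immunoproteasome genes were lower still, between 0.961 and 2.58 CPM per kb in LNCaP and between 1.15 and 5.14 in C4-2B. PSMA8, the testis form of an alpha subunit, was listed at 0 in every library, and PSMB11, the thymus-specific catalytic subunit, reached at most 0.0582 CPM. These 2 genes did not pass the filter on low counts, which left 37 members for the tests.

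**Figure D1:**
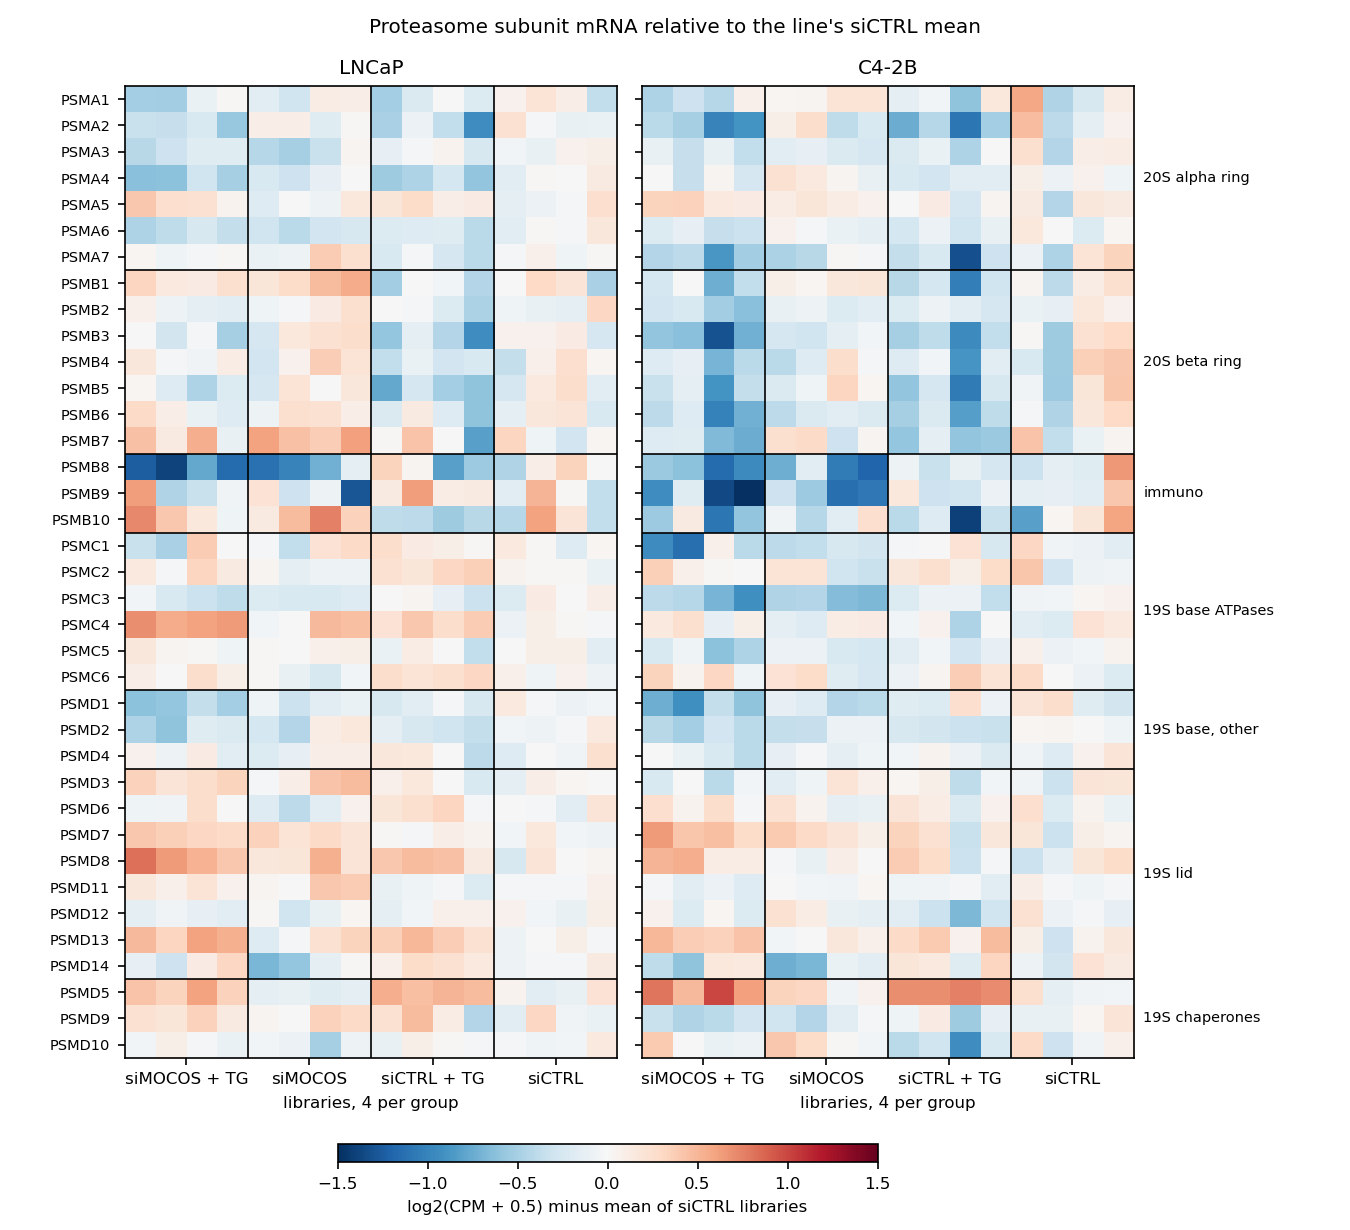
Heat map of the 37 members that passed the filter (rows, by class) over the 32 libraries (columns, LNCaP left and C4-2B right), as log2(CPM + 0.5) minus the mean of the line's siCTRL libraries. Rows of the 20S rings are mostly blue in the TG groups, and the row of PSMD5 is red in the TG groups of both lines.

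TG in siCTRL cells asks what ER stress does to the proteasome genes. Several subunits of the 20S core fell in each line, PSMA2 and PSMB3 in both, while the base chaperone PSMD5 rose in both. Some 19S subunits rose in LNCaP and a pair fell in C4-2B. In LNCaP edgeR called 6 members higher and 5 lower of 37, against 24.6% of all genes higher and 25.1% lower. In C4-2B it called 1 higher and 8 lower, against 21.2% higher and 19.3% lower. The share of members called lower in C4-2B, 21.6%, was thus near that of all genes, and the other shares were below it. The median absolute change of the members was 0.229 log2 units in LNCaP and 0.191 in C4-2B, against 0.446 and 0.445 for all genes. Groups without overlap were common. In LNCaP 5 members were higher and 4 lower in every TG library, against 24.3% and 25.3% of all genes. In C4-2B 1 was higher and 5 lower, against 21.6% and 18.8%. A member was called at an adjusted p under 0.05 (quasi-likelihood F-test, Benjamini-Hochberg over all genes). Since these are bulk samples, fewer cells of a type and less RNA per cell cannot be told apart.

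The 14 subunits of the 20S rings shared a direction. In LNCaP 13 of 14 changes were below 0, with 5 called lower and a median of −0.242, against −0.038 over all genes. In C4-2B all 14 were below 0, with 5 called lower and a median of −0.411, against −0.009 over all genes. The share of ring subunits called lower was 35.7% in each line, against 25.1% of all genes in LNCaP and 19.3% in C4-2B. When libraries were scaled by their totals alone, the medians were −0.160 and −0.327 and the changes below 0 numbered 11 and 13. The 17 subunits of the 19S base and lid had medians of 0.039 in LNCaP, with 5 called higher and 0 lower, and −0.061 in C4-2B, with 0 called higher and 2 lower. The C4-2B median of the 19S subunits turned to 0.023 with library totals alone and to 0.008 without siCTRL replicate 4, so its sign depends on the scaling and on 1 library. The LNCaP median of the 19S subunits lay between 0.019 and 0.143 when 1 library was left out, at 0.143 without siCTRL TG replicate 4. Ring subunits have shorter transcripts, with a median length of 1487 bases for the alpha and 964 for the beta ring, against 1889.5 for the base ATPases and 1972.5 for the lid. With a correction for GC content and length the ring medians were −0.260 in LNCaP, with 5 called lower, and −0.362 in C4-2B, with 9 called lower. Without the libraries that stood apart the ring median was −0.201 in LNCaP, with 4 called lower, and −0.402 in C4-2B, with 7 called lower. The 2 LNCaP libraries deviated in opposite directions, and without siCTRL TG replicate 4 alone the ring median there was −0.152, with 11 of 14 below 0 and 2 called lower. It was −0.170 without siCTRL TG replicate 1, also with 2 called lower. In C4-2B the ring median ran from −0.281 without siCTRL TG replicate 3 to −0.545 without siCTRL replicate 2, and the count called lower from 1 to 8. The C4-2B count was 1 without siCTRL replicate 3 or 4 or siCTRL TG replicate 3, and 2 without siCTRL replicate 1, siCTRL TG replicate 1 or siMOCOS TG library 1.

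**Figure D2:**
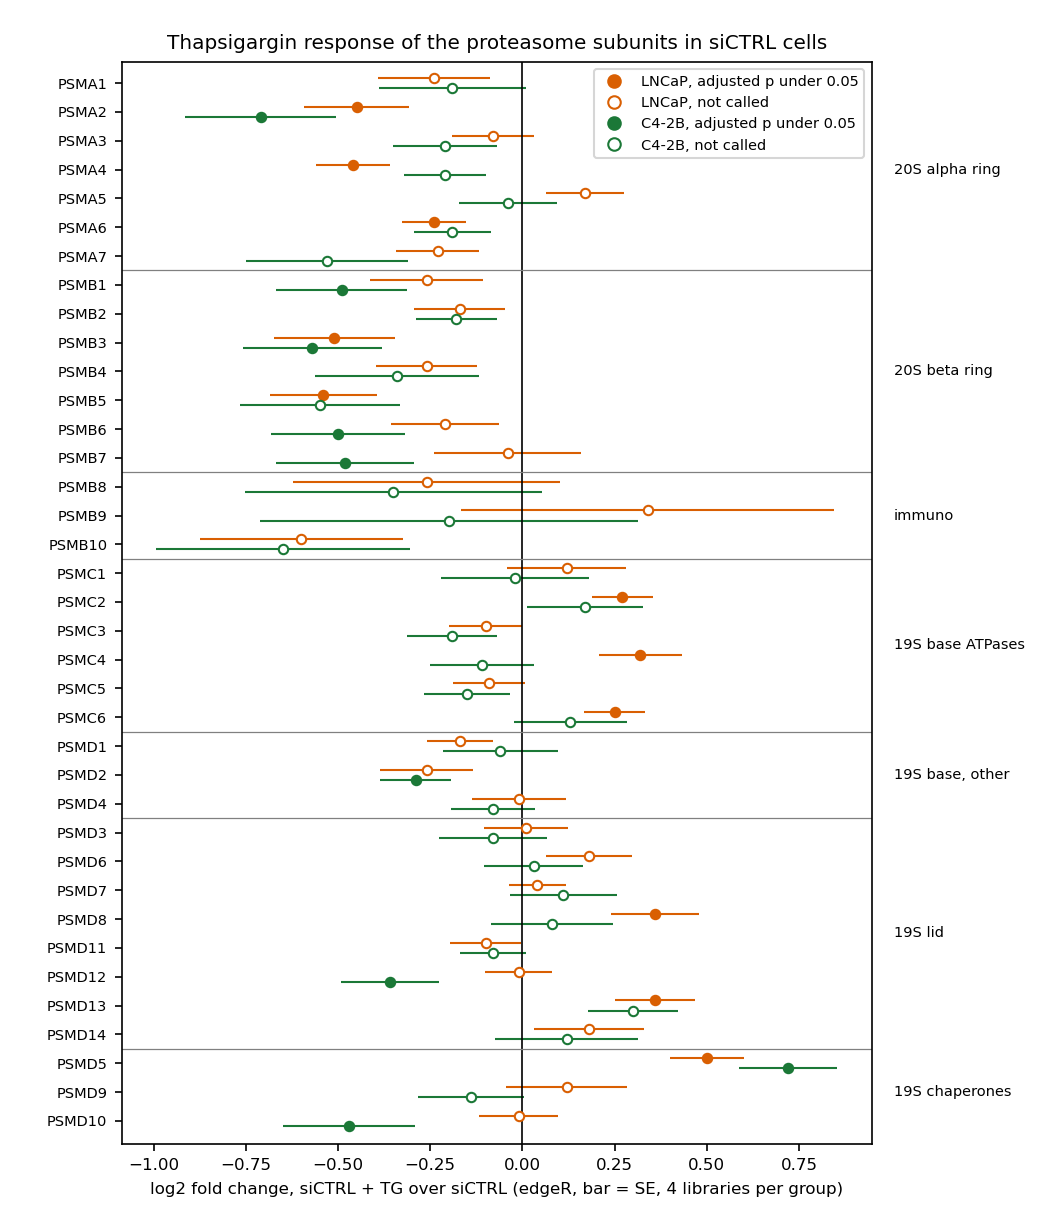
Change with TG in siCTRL cells for each member (rows, by class) as log2 fold change with its standard error, LNCaP in orange and C4-2B in green, 4 libraries per group. Filled points passed an adjusted p of 0.05. The points of the 20S rings lie left of 0 except PSMA5 in LNCaP, and PSMD5 lies right of 0 in both lines.

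PSMA2, an alpha subunit, had the greatest fall among the ring genes of C4-2B. It stood at 53.5, 66.9, 42.1 and 63.1 CPM in C4-2B siCTRL cells with TG, against 124, 68.5, 82.0 and 94.0 CPM without. All 4 TG libraries lay below all 4 without TG, and the log2 change was −0.71 (SE 0.204, edgeR adjusted p = 0.0107). In LNCaP PSMA2 had 59.6, 78.9, 65.0 and 43.8 CPM with TG, against 98.5, 83.0, 77.5 and 78.2 CPM without. There TG replicate 2 reached into the range of the cells without TG, and the change was −0.45 (SE 0.142, adjusted p = 0.0142). The LNCaP call was lost without siCTRL replicate 1 (adjusted p = 0.0555), siCTRL TG replicate 1 (0.0610) or siCTRL TG replicate 4 (0.0897).

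PSMA4, another alpha subunit, fell in LNCaP. It had 236, 246, 283 and 225 CPM with TG, against 305, 345, 342 and 374 CPM without, with no overlap (log2 −0.46, SE 0.101, edgeR adjusted p = 0.000973). In C4-2B PSMA4 had 205, 196, 214 and 214 CPM with TG, against 254, 226, 250 and 229 CPM without. The C4-2B groups did not overlap either, but the change of −0.21 was not called (SE 0.11, adjusted p = 0.134). PSMA6 was called lower in LNCaP by −0.24 (SE 0.0865, adjusted p = 0.0256), and this was lost without the 2 LNCaP libraries that stood apart (adjusted p = 0.291). The other alpha subunits were not called in either line.

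PSMB3, a beta subunit without a cutting site, fell in both lines. In LNCaP it had 25.1, 34.3, 27.8 and 19.6 CPM with TG, against 39.7, 39.5, 41.1 and 31.8 CPM without (log2 −0.51, SE 0.165, edgeR adjusted p = 0.0157). In C4-2B it had 51.5, 55.9, 37.3 and 56.2 CPM with TG, against 73.7, 50.2, 85.4 and 89.5 CPM without (log2 −0.57, SE 0.189, adjusted p = 0.0225). In each line 1 library without TG overlapped the TG range, siCTRL replicate 4 in LNCaP and siCTRL replicate 2 in C4-2B. The LNCaP call was lost without siCTRL TG replicate 1 (adjusted p = 0.0637) or 4 (0.0933). The C4-2B call was lost with library totals (0.0806) and with a block on replicate numbers (0.0855). It was also lost without siCTRL replicate 3 (0.0645), siCTRL replicate 4 (0.101) or siCTRL TG replicate 3 (0.0719). PSMB1, also without a cutting site, had 138, 154, 90.0 and 150 CPM with TG, against 191, 141, 199 and 218 CPM without in C4-2B (log2 −0.49, SE 0.177, adjusted p = 0.0345). Again only siCTRL replicate 2 lay within the TG range. This PSMB1 call was kept in 10 of 16 fits that left out 1 library. In LNCaP the PSMB1 change of −0.26 was not called (SE 0.153, adjusted p = 0.163).

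The 3 constitutive catalytic subunits differed in which line passed the test. PSMB5, the chymotrypsin-like subunit and the main target of bortezomib, had 50.1, 71.6, 59.8 and 56.1 CPM with TG in LNCaP, against 71.6, 94.6, 103 and 76.6 CPM without. The highest TG library lay just below the lowest without TG, and PSMB5 fell by 0.54 log2 units (log2 −0.54, SE 0.145, edgeR adjusted p = 0.00476). In C4-2B PSMB5 had 52.3, 66.5, 37.8 and 67.1 CPM with TG, against 76.7, 54.1, 90.1 and 106 CPM without. The C4-2B change was of the same size, −0.55, with a wider error (SE 0.217, 95% interval −1.02 to −0.07), and its adjusted p of 0.0531 missed the threshold.

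PSMB6, the caspase-like subunit, had 111, 135, 88.8 and 121 CPM with TG in C4-2B, against 156, 115, 177 and 193 CPM without. As for PSMB1 and PSMB3, siCTRL replicate 2 was the library that overlapped, and PSMB6 fell by 0.50 (log2 −0.50, SE 0.182, edgeR adjusted p = 0.0386). The PSMB6 call was kept in 9 of 16 fits that left out 1 library. In LNCaP PSMB6 had 80.4, 102, 81.2 and 61.3 CPM with TG, against 84.5, 105, 107 and 79.4 CPM without, a change of −0.21 that was not called (SE 0.147, adjusted p = 0.249). PSMB7, the trypsin-like subunit, had 155, 212, 154 and 158 CPM with TG in C4-2B, against 313, 179, 217 and 238 CPM without. TG replicate 2 stood above the lowest library without TG, and the change of −0.48 only just passed (SE 0.187, adjusted p = 0.0495). In LNCaP PSMB7 had 125, 166, 124 and 69.7 CPM with TG, against 154, 118, 101 and 126 CPM without, and −0.04 was not called (SE 0.200, adjusted p = 0.877). The TG range held all 4 values without TG. The lines were not shown to differ in these responses, as the test of that difference below called none.

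**Figure D3:**
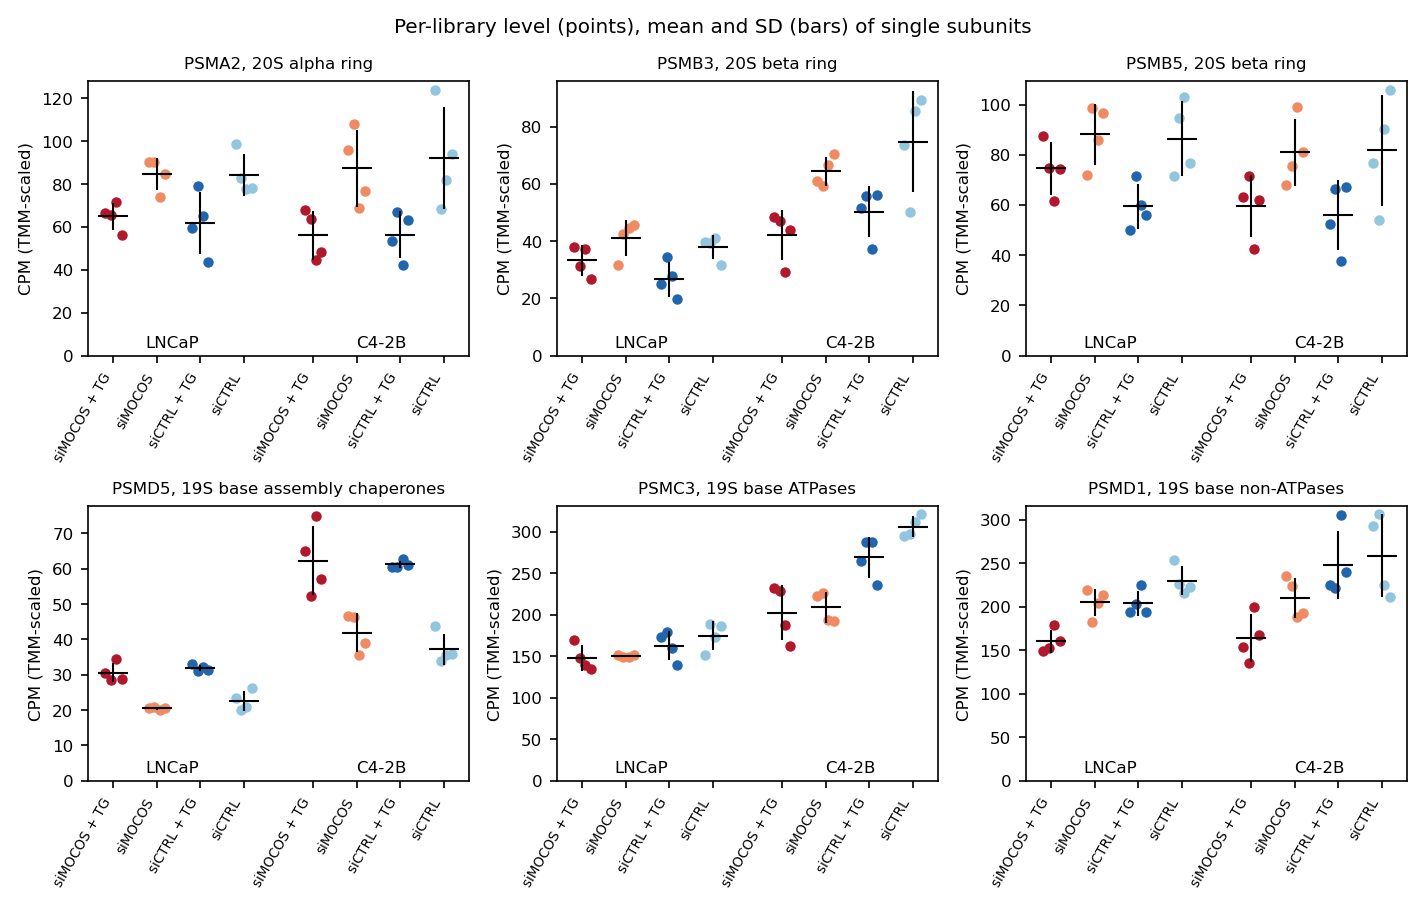
CPM of PSMA2, PSMB3, PSMB5, PSMD5, PSMC3 and PSMD1 in each library (points), with mean and SD (bars), for LNCaP (left) and C4-2B (right); scaling is within a line. PSMD5 in all TG libraries lies above all libraries of the same line without TG, and PSMC3 in C4-2B lies lower in siMOCOS cells than in siCTRL cells.

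The chaperone PSMD5 rose in both lines. It stood at 33.1, 31.0, 32.3 and 31.4 CPM with TG in LNCaP siCTRL cells, against 23.5, 20.1, 20.8 and 26.3 CPM without (log2 0.50, SE 0.101, edgeR adjusted p = 0.000545). In C4-2B it stood at 60.6, 60.6, 62.7 and 61.0 CPM with TG, against 43.7, 33.8, 35.6 and 35.9 CPM without (log2 0.72, SE 0.134, adjusted p = 0.000426). In both lines every TG library lay above every library without TG, and the 4 TG libraries lay close together. PSMD5 shares its locus with the antisense gene PSMD5-AS1, which rose with TG by 1.32 in LNCaP (SE 0.130, adjusted p = 1.99e-07) and by 1.07 in C4-2B (SE 0.143, adjusted p = 1.71e-05). The libraries were strand-specific, but no source used here says whether reads were assigned by strand, so reads of the 2 genes cannot be told apart with certainty. PSMD9 was not called in either line. PSMD10, known also as gankyrin, was called lower in C4-2B by −0.47 (SE 0.178, adjusted p = 0.0457), a call lost without the libraries that stood apart (0.0588).

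Among the 19S subunits the calls went up in LNCaP and down in C4-2B, but no member was called in opposite directions in the lines. The share of the base and lid called higher in LNCaP was 29.4%, against 24.6% of all genes. The share called lower in C4-2B was 11.8%, against 19.3% of all genes. The test of the difference between the lines, given below, called no member. PSMD13, a lid subunit, had 138, 152, 140 and 126 CPM with TG in LNCaP, against 102, 108, 115 and 107 CPM without (log2 0.36, SE 0.109, edgeR adjusted p = 0.0102). PSMD8, also of the lid, had 175, 184, 180 and 146 CPM with TG, against 112, 152, 133 and 136 CPM without (log2 0.36, SE 0.119, adjusted p = 0.0181). The PSMD13 groups did not overlap, and for PSMD8 only TG replicate 4 fell into the range without TG. The base ATPase PSMC4 had 78.4, 89.8, 81.0 and 88.4 CPM with TG, against 63.5, 71.7, 68.6 and 66.6 CPM without, also with no overlap (log2 0.32, SE 0.113, adjusted p = 0.0255). Its call was lost without the LNCaP libraries that stood apart (adjusted p = 0.114).

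PSMC2 and PSMC6, ATPases of the same ring, rose in LNCaP by 0.27 (SE 0.0828, edgeR adjusted p = 0.0116) and 0.25 (SE 0.0818, adjusted p = 0.0166). With the GC and length correction neither was called (adjusted p = 0.360 and 0.692). In C4-2B PSMD13 changed by 0.30 and just missed the threshold (SE 0.121, adjusted p = 0.0543). The scaffold subunit PSMD2 fell there by 0.29 (log2 −0.29, SE 0.0967, adjusted p = 0.0229), and the lid subunit PSMD12 fell by 0.36 (log2 −0.36, SE 0.133, adjusted p = 0.0370). Neither PSMD2 nor PSMD12 was called without the C4-2B libraries that stood apart (adjusted p = 0.0591 and 0.0920).

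The C4-2B calls rested on few libraries. The 8 members called lower in C4-2B became 2 without siCTRL replicate 3, siCTRL replicate 4 or siCTRL TG replicate 3, 4 without siCTRL replicate 1 or siCTRL TG replicate 1, and 5 without siCTRL TG replicate 4 or siMOCOS TG replicate 1. They became 1 when libraries were scaled by totals alone and 13 with the GC and length correction. The 5 called lower in LNCaP became 2 without siCTRL TG replicate 1 or 4. PSMA2 and PSMD5 in C4-2B, and PSMA4, PSMB5, PSMD5 and PSMD13 in LNCaP, were called with TG under every alternative and without any single library.

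Summed levels set the core beside its cap. The 14 ring subunits summed to 1557 ± 168 CPM with TG and 1856 ± 64.2 CPM without in LNCaP, and to 1647 ± 199 and 2066 ± 297 CPM in C4-2B (SD, n = 4 each). The 17 base and lid subunits summed to 2917 ± 131 CPM with TG and 2827 ± 45.0 CPM without in LNCaP, and to 3724 ± 87.7 and 3855 ± 235 CPM in C4-2B. The ratio of the 2 sums, which does not depend on how a library was scaled, ran from 0.498 to 0.574 with TG and from 0.636 to 0.680 without in LNCaP. In C4-2B it ran from 0.377 to 0.484 with TG and from 0.452 to 0.590 without. The LNCaP ranges did not overlap, and in C4-2B siCTRL replicate 2 was the library without TG that lay within the TG range. In siMOCOS cells the ratio ran from 0.556 to 0.587 with TG and from 0.630 to 0.692 without in LNCaP, and from 0.411 to 0.525 with TG and from 0.565 to 0.590 without in C4-2B, with no overlap in either line. Since the sums hold CPM and not CPM per kb, the ratio is no count of molecules.

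**Figure D4:**
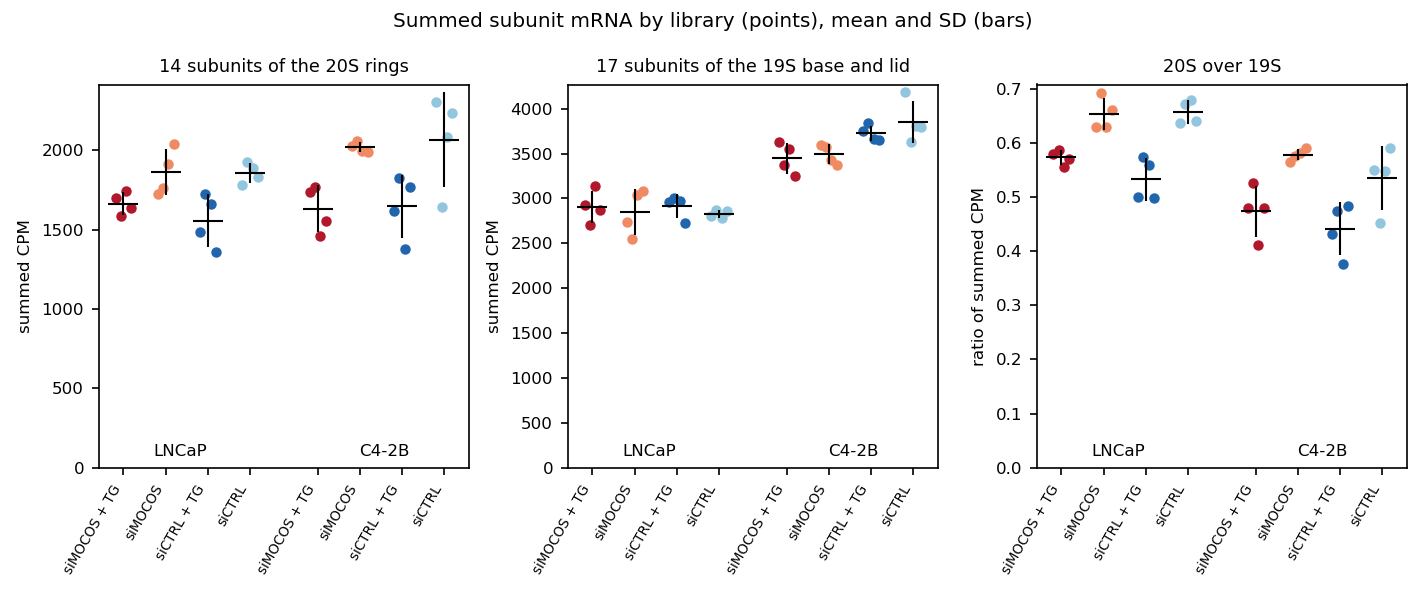
Summed CPM of the 14 ring subunits (left), of the 17 base and lid subunits (middle) and their ratio (right) in each library (points), with mean and SD (bars), for LNCaP and C4-2B. In LNCaP the ratio with TG lies below the ratio without TG in both siRNA groups, and in C4-2B the ranges overlap in siCTRL cells only.

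The immunoproteasome subunits were not called with TG in siCTRL cells of either line. PSMB8 had 2.68, 2.09, 0.931 and 1.23 CPM with TG in LNCaP, against 1.34, 2.20, 2.68 and 2.03 CPM without, and 1.13, 0.864, 1.09 and 0.945 CPM with TG in C4-2B, against 0.872, 1.06, 1.02 and 2.20 CPM without. PSMB9 had 0.839, 1.38, 0.815 and 0.839 CPM with TG in LNCaP, against 0.591, 1.24, 0.731 and 0.441 CPM without, and 1.40, 0.864, 0.883 and 1.10 CPM with TG in C4-2B, against 1.05, 1.06, 1.02 and 1.75 CPM without. For both genes the groups overlapped in each line. PSMB10 had 2.18, 2.15, 1.92 and 2.12 CPM with TG in LNCaP, against 2.10, 4.80, 3.49 and 2.20 CPM without (log2 −0.60, SE 0.275, edgeR adjusted p = 0.0804). In C4-2B PSMB10 had 4.32, 5.09, 1.92 and 4.57 CPM with TG, against 3.14, 6.03, 6.77 and 9.12 CPM without (log2 −0.65, SE 0.344, adjusted p = 0.144). The 3 genes together made up 1.84% ± 0.414 of the immune and constitutive catalytic pairs with TG and 1.90% ± 0.557 without in LNCaP, where the constitutive partners are PSMB5, PSMB6 and PSMB7. In C4-2B the share was 1.74% ± 0.318 with TG and 1.84% ± 0.668 without (SD, n = 4 each), so the spread between libraries exceeded the difference in both lines.

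TG in siMOCOS cells asks whether the same stress response is seen after the knockdown. PSMD5 rose and PSMA2 fell in both lines here too, and PSMD13 rose in both. In LNCaP edgeR called 7 members higher and 3 lower, against 25.1% and 21.9% of all genes. In C4-2B it called 2 higher and 3 lower, against 20.7% and 17.2%. Without overlap 2 members were higher and 2 lower in LNCaP, against 21.9% and 18.2% of all genes. In C4-2B 3 were higher and 4 lower in this way, against 19.2% and 15.6%. The ring subunits had a median of −0.154 in LNCaP, with 12 of 14 below 0, and −0.323 in C4-2B, with 13 of 14 below 0. The medians over all genes were −0.005 and −0.025. With library totals alone these medians were −0.079 and −0.318, and without siMOCOS library 4 the LNCaP median was −0.100. The siMOCOS and siCTRL comparisons share no library, but within a line they share the scaling and the estimate of the spread. They are therefore not independent.

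PSMD5 had 30.6, 28.6, 34.5 and 28.8 CPM in LNCaP siMOCOS cells with TG, against 20.5, 20.9, 19.9 and 20.5 CPM in siMOCOS cells without (log2 0.58, SE 0.102, edgeR adjusted p = 0.000146). In C4-2B it had 64.9, 52.3, 74.9 and 57.1 CPM with TG, against 46.7, 46.2, 35.6 and 38.9 CPM without (log2 0.57, SE 0.133, adjusted p = 0.00255). As in siCTRL cells, no TG library overlapped one without TG. PSMA2 had 66.4, 65.7, 71.6 and 56.2 CPM with TG in LNCaP, against 90.1, 90.1, 74.2 and 84.6 CPM without (log2 −0.38, SE 0.142, adjusted p = 0.0342). In C4-2B PSMA2 had 68.1, 63.6, 44.5 and 48.1 CPM with TG, against 95.9, 108, 68.8 and 76.8 CPM without (log2 −0.64, SE 0.204, adjusted p = 0.0196). Every TG library of both lines was below every siMOCOS library without TG. The LNCaP PSMA2 call was lost with library totals (adjusted p = 0.0870) and in the common fit (0.0552). It was also lost without siMOCOS TG library 4 or siMOCOS library 1, 2 or 4 (0.0572 to 0.0796). The C4-2B PSMA2 call was lost without siMOCOS TG library 3 or 4 or siMOCOS library 2 (0.0573 to 0.0662).

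In LNCaP siMOCOS cells PSMC4 had 110, 99.8, 103 and 105 CPM with TG, against 65.5, 67.3, 94.7 and 92.5 CPM without (log2 0.39, SE 0.113, edgeR adjusted p = 0.00893). PSMD13 had 151, 135, 164 and 157 CPM with TG, against 94.1, 107, 127 and 136 CPM without (log2 0.39, SE 0.109, adjusted p = 0.00731). For PSMC4 and PSMD13 alike, siMOCOS libraries 1 and 2 were lower than libraries 3 and 4 in cells without TG. PSMC4 did not overlap, and PSMD13 overlapped by 1 library on each side. PSMD8 had 235, 206, 190 and 176 CPM with TG, against 149, 150, 192 and 151 CPM without (log2 0.33, SE 0.119, adjusted p = 0.0297), and siMOCOS library 3 was the one that overlapped. The smaller rises of PSMA5, PSMC2 and PSMC6 were lost under 6 of the 8 settings other than leaving out 1 library. PSMC6 turned to −0.04 with the GC and length correction.

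PSMA4 had 221, 223, 276 and 241 CPM with TG in LNCaP siMOCOS cells, against 291, 275, 312 and 339 CPM without (log2 −0.34, SE 0.101, edgeR adjusted p = 0.00984). PSMD1, a large scaffold subunit of the base, had 149, 153, 179 and 161 CPM with TG, against 219, 183, 204 and 214 CPM without (log2 −0.35, SE 0.0900, adjusted p = 0.00347). For PSMD1 the ranges did not overlap, and for PSMA4 TG library 3 just passed siMOCOS library 2. In C4-2B siMOCOS cells PSMB3 had 48.4, 47.0, 29.2 and 43.9 CPM with TG, against 61.1, 59.4, 66.6 and 70.6 CPM without (log2 −0.61, SE 0.189, adjusted p = 0.0167). PSMB7 had 202, 205, 146 and 138 CPM with TG, against 275, 282, 187 and 238 CPM without (log2 −0.51, SE 0.187, adjusted p = 0.0403). PSMB3 did not overlap, while siMOCOS library 3 put PSMB7 into the TG range. PSMD13 had 158, 144, 142 and 151 CPM with TG in C4-2B, against 109, 111, 126 and 118 CPM without, with no overlap (log2 0.36, SE 0.120, adjusted p = 0.0265). Its call was lost with library totals (adjusted p = 0.0527) and without siMOCOS TG library 1 or 4 or siMOCOS library 1 or 2 (0.0515 to 0.0816).

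These counts also moved with single libraries. The 7 called higher in LNCaP siMOCOS cells became 3 or 4 without siCTRL replicate 2 or 3, any 1 of the 4 siCTRL TG replicates, siMOCOS TG library 1 or 3, or siMOCOS library 2. The 3 called lower in C4-2B became 1 without siMOCOS TG library 4 or siMOCOS library 2 and 5 without siMOCOS TG library 2. The 2 called higher became 1 without siMOCOS TG library 1 or 4 or siMOCOS library 1 or 2.

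Knockdown of MOCOS without TG asks what the loss of the cofactor sulfurase does to unstressed cells. It changed few proteasome genes, and none was called in both lines. In LNCaP edgeR called 1 member higher and 1 lower, against 6.00% and 9.73% of all genes. In C4-2B it called 0 higher and 1 lower, against 9.09% and 8.14%. Without adjustment 12 members in LNCaP and 4 in C4-2B had a p under 0.05. The share of all genes at an unadjusted p under 0.05 was not computed, here or for the comparisons below. Such counts therefore have no background beside them. DESeq2 called 1 higher and 1 lower in LNCaP, and 0 higher and 2 lower in C4-2B. The medians over the members were 0.007 in LNCaP and −0.056 in C4-2B, against −0.022 and 0.003 over all genes.

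PSMC3, an ATPase of the base, fell in C4-2B. It had 223, 226, 194 and 192 CPM in C4-2B siMOCOS cells, against 295, 297, 311 and 321 CPM in siCTRL cells. All siMOCOS libraries were below all siCTRL libraries by a wide gap, and PSMC3 fell by 0.55 (log2 −0.55, SE 0.123, edgeR adjusted p = 0.00444). The call held under each alternative and without any single library. In LNCaP PSMC3 had 151, 149, 149 and 152 CPM in siMOCOS cells, against 151, 189, 173 and 186 CPM in siCTRL cells, and the change of −0.22 was not called (SE 0.100, adjusted p = 0.147).

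In LNCaP PSMD7, a lid subunit that pairs with PSMD14, had 216, 195, 207 and 193 CPM in siMOCOS cells, against 165, 189, 164 and 161 CPM in siCTRL cells (log2 0.26, SE 0.0772, edgeR adjusted p = 0.0320). The alpha subunit PSMA6 had 205, 191, 206 and 213 CPM in siMOCOS cells, against 226, 255, 247 and 283 CPM in siCTRL cells (log2 −0.31, SE 0.0867, adjusted p = 0.0215). Neither pair of groups overlapped, but both calls were fragile. PSMD7 dropped out without siCTRL replicate 1, 3 or 4 or siMOCOS library 1, 2 or 3. PSMA6 dropped out without siCTRL replicate 4, siCTRL TG replicate 1, 2 or 3, siMOCOS TG library 2 or 4 or siMOCOS library 2, and without siMOCOS library 4 the count called lower became 4. In C4-2B the count called lower became 2 without siCTRL replicate 1 or siMOCOS library 2.

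Of the catalytic subunits none was called after knockdown without TG. In LNCaP PSMB5 had 71.8, 98.5, 85.9 and 96.5 CPM, PSMB6 had 88.4, 110, 109 and 100 CPM, and PSMB7 had 188, 168, 159 and 189 CPM in siMOCOS cells, the siCTRL values being those given above. The PSMB7 values all lay above those of siCTRL cells, with a change of 0.49 that missed the threshold (SE 0.201, edgeR adjusted p = 0.105). In C4-2B siMOCOS cells PSMB5 had 68.0, 75.6, 99.1 and 81.3 CPM, and PSMB6 had 120, 135, 141 and 135 CPM. These overlapped the siCTRL values of C4-2B.

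Of the immunoproteasome subunits, PSMB8 had 0.654, 0.760, 1.02 and 1.77 CPM in LNCaP siMOCOS cells (log2 −1.04 against siCTRL, SE 0.396, edgeR adjusted p = 0.0818). In C4-2B siMOCOS cells PSMB8 had 0.539, 1.04, 0.329 and 0.255 CPM (log2 −1.24, SE 0.429, adjusted p = 0.0540), so neither change was called, and the groups overlapped in both lines. PSMB9 had 0.916, 0.483, 0.652 and 0 CPM in LNCaP siMOCOS cells and 0.862, 0.659, 0.275 and 0.306 CPM in C4-2B siMOCOS cells. The C4-2B values all lay below those of siCTRL cells, with a change of −1.20 that was not called (SE 0.550, adjusted p = 0.146). PSMB10 had 3.34, 4.35, 5.40 and 3.95 CPM in LNCaP siMOCOS cells and 5.66, 4.23, 5.16 and 7.13 CPM in C4-2B siMOCOS cells, which overlapped siCTRL cells in both lines.

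Knockdown with TG asks the same of stressed cells, in which MOCOS itself stood higher than without TG. PSMD1 was lower in the siMOCOS cells of both lines. In LNCaP edgeR called 3 members higher and 2 lower, against 11.7% and 10.2% of all genes. In C4-2B it called 0 higher and 2 lower, against 9.21% and 7.60%, with 1 higher by DESeq2. There 8 members had an unadjusted p under 0.05, again without a share of all genes. Without overlap 7 members were higher and 1 lower in LNCaP, against 12.5% and 12.3% of all genes. In C4-2B 2 were higher and 3 lower in this way, against 11.1% and 10.1%. PSMD1 had 149, 153, 179 and 161 CPM in LNCaP siMOCOS cells with TG, against 194, 203, 225 and 194 CPM in siCTRL cells with TG (log2 −0.35, SE 0.0899, edgeR adjusted p = 0.0112). In C4-2B it had 154, 135, 200 and 168 CPM in siMOCOS cells with TG, against 225, 222, 305 and 240 CPM in siCTRL cells with TG (log2 −0.59, SE 0.155, adjusted p = 0.0128). The groups did not overlap in either line, and both calls held under each alternative and without any single library. Without TG the change of PSMD1 was −0.16 in LNCaP (adjusted p = 0.227) and −0.30 in C4-2B (adjusted p = 0.203), and the difference between the settings is tested below.

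PSMC3 was lower in C4-2B with TG too, at 232, 228, 188 and 162 CPM in siMOCOS cells, against 265, 287, 288 and 236 CPM in siCTRL cells (log2 −0.41, SE 0.122, edgeR adjusted p = 0.0287). The lowest siCTRL library lay just above the highest siMOCOS library, and the call was lost with the GC and length correction (adjusted p = 0.0755) and without the libraries that stood apart (0.0626). The count called lower in C4-2B was 1 without siCTRL TG replicate 1, 2 or 3 or siMOCOS TG library 4, and the count called higher was 1 without siCTRL replicate 2 or siMOCOS TG library 3.

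In LNCaP with TG, PSMD7 had 225, 217, 210 and 206 CPM in siMOCOS cells, against 172, 168, 182 and 176 CPM in siCTRL cells (log2 0.30, SE 0.0769, edgeR adjusted p = 0.0108). PSMB1 had 207, 183, 180 and 196 CPM in siMOCOS cells, against 115, 166, 160 and 122 CPM in siCTRL cells (log2 0.45, SE 0.153, adjusted p = 0.0447). Both were higher in all siMOCOS libraries. Without the LNCaP libraries that stood apart, both of which are siCTRL cells with TG, neither was called (adjusted p = 0.127 and 0.144), nor was either in the common fit (0.108 and 0.0871). The count called higher became 0 without siCTRL TG replicate 1 or siMOCOS TG library 1 or 2, and 1 without siCTRL TG replicate 3 or 4. The count called lower became 1 without siCTRL TG replicate 1 or siMOCOS TG library 2.

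The other calls in LNCaP with TG were immunoproteasome subunits at low levels, and they went in opposite directions. PSMB8 had 0.570, 0.461, 0.979 and 0.628 CPM in siMOCOS cells with TG, against 2.68, 2.09, 0.931 and 1.23 CPM in siCTRL cells with TG (log2 −1.38, SE 0.385, edgeR adjusted p = 0.0161). PSMB10 had 5.27, 4.12, 3.4 and 2.83 CPM in siMOCOS cells with TG, against 2.18, 2.15, 1.92 and 2.12 CPM in siCTRL cells with TG (log2 0.90, SE 0.268, adjusted p = 0.0232). PSMB8 overlapped in siMOCOS library 3, and PSMB10 did not overlap. The PSMB10 change was 0.53 with the GC and length correction (adjusted p = 0.0779), and its call was also lost in the common fit (0.0629) and without the libraries that stood apart (0.121). It was lost as well without siCTRL TG replicate 1, 3 or 4 or siMOCOS TG library 1 or 2. The PSMB8 call was lost without the libraries that stood apart (adjusted p = 0.0569), without siCTRL TG replicate 1 (0.0547) and without siMOCOS TG library 2 (0.0510). In C4-2B with TG, PSMB8 had 0.672, 0.627, 0.272 and 0.388 CPM, PSMB9 had 0.392, 0.993, 0.163 and 0.0431 CPM and PSMB10 had 3.87, 6.53, 2.51 and 3.75 CPM in siMOCOS cells. The C4-2B changes were −1.03, −1.42 and 0.06, and none was called (adjusted p = 0.109, 0.0908 and 0.928).

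PSMB9 in LNCaP siMOCOS cells with TG had 1.38, 0.390, 0.464 and 0.673 CPM, which overlapped siCTRL cells. The constitutive subunits PSMB5, PSMB6 and PSMB7 had 87.4, 74.9, 61.7 and 74.3 CPM, 114, 99.5, 87.2 and 81.1 CPM, and 168, 135, 180 and 114 CPM in LNCaP siMOCOS cells with TG. In C4-2B siMOCOS cells with TG PSMB5 had 63.0, 71.6, 42.5 and 61.8 CPM, and PSMB6 had 120, 137, 77.7 and 95.3 CPM. None of these was called against siCTRL cells with TG, and all groups overlapped.

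The interaction, by which the knockdown effect under TG exceeds that in vehicle, was called for no member by edgeR. In LNCaP 0 were higher and 0 lower, against 0.00724% and 0.00% of all genes, and in C4-2B 0 and 0, against 0.0283% and 0.0425%. At an unadjusted p under 0.05 there were 0 members in either line, and DESeq2 called 0. The interactions ranged from −0.34 to 0.47 in LNCaP and from −0.29 to 0.36 in C4-2B. The difference between the lines in the TG response was likewise called for 0 members higher and 0 lower, against 0.417% and 0.431% of all genes, with 3 members at an unadjusted p under 0.05 and 0 by DESeq2. It ranged from −0.26 to 0.53. The difference in the siMOCOS response without TG was called for 0 and 0, against 0.0205% and 0.137%, with 2 at an unadjusted p under 0.05, 0 by DESeq2, and a range from −0.31 to 0.76. Missing the threshold does not show that the responses were alike.

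At baseline, in siCTRL cells without TG, LNCaP was set against C4-2B in 1 fit of all 32 libraries. LNCaP had less mRNA of many proteasome subunits than C4-2B, in the base ATPases, the beta ring and 2 base chaperones, and more of the alpha subunits PSMA4 and PSMA6. edgeR called 2 members higher and 14 lower in LNCaP, against 21.1% and 20.1% of all genes, so that 37.8% of the tested members were lower. The median was −0.106 over the members and 0.001 over all genes. Scaling by library totals alone moved the median of all genes by −0.155, and under it the count called higher was 1. Of the 6 base ATPases 4 were lower, of the 7 beta ring subunits 4, of the 8 lid subunits 1 and of the 7 alpha subunits 1.

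PSMA4 had 319, 367, 358 and 393 CPM in LNCaP, against 244, 213, 241 and 217 CPM in C4-2B, on the scale of the common fit (log2 0.65, SE 0.104, edgeR adjusted p = 9.53e-06). PSMA6 had 237, 271, 259 and 297 CPM in LNCaP, against 251, 222, 196 and 227 CPM in C4-2B (log2 change 0.25, SE 0.0888, adjusted p = 0.0256). The PSMA4 libraries of LNCaP all lay above those of C4-2B, while those of PSMA6 overlapped. PSMA6 was not called with RLE scaling (adjusted p = 0.0552) or library totals (0.406). It was lost as well, and the count called higher was 1, when any 1 of these was left out: in C4-2B, siCTRL replicate 3, TG-treated siCTRL replicate 1, 2 or 4, siMOCOS TG library 3 or siMOCOS library 3 or 4, and in LNCaP, siCTRL replicate 2 or 4. Without C4-2B siCTRL replicate 1 that count was 4.

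PSMB3 had 41.6, 42, 43.1 and 33.4 CPM in LNCaP, against 70.8, 47.1, 82.3 and 84.6 CPM in C4-2B (log2 change −0.83, SE 0.181, edgeR adjusted p = 0.000487). PSMB7 had 161, 125, 106 and 133 CPM in LNCaP, against 300, 168, 210 and 225 CPM in C4-2B (log2 change −0.78, SE 0.204, adjusted p = 0.00281). PSMC3 had 158, 201, 182 and 195 CPM in LNCaP, against 283, 279, 300 and 304 CPM in C4-2B (log2 change −0.66, SE 0.109, adjusted p = 1.33e-05). PSMD9, a base chaperone, had 19.1, 27.0, 20.5 and 19.9 CPM in LNCaP, against 32.7, 31.9, 36.2 and 39.9 CPM in C4-2B (log2 change −0.70, SE 0.154, adjusted p = 0.000541). For all 4 genes each LNCaP library was below each C4-2B library. That held for 11 of the 37 members and for 18.2% of all genes.

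The chaperone PSMD5 was also lower in LNCaP (log2 −0.58, SE 0.118, edgeR adjusted p = 0.000235). PSMB6 had 88.6, 111, 112 and 83.4 CPM in LNCaP, against 150, 108, 171 and 183 CPM in C4-2B (log2 change −0.63, SE 0.170, adjusted p = 0.00366). PSMB10 had 2.20, 5.11, 3.66 and 2.31 CPM in LNCaP, against 3.01, 5.66, 6.53 and 8.62 CPM in C4-2B (log2 change −0.83, SE 0.319, adjusted p = 0.0366). Both overlapped, PSMB6 through C4-2B siCTRL replicate 2. The PSMB10 call was lost without any 1 of siCTRL replicates 2, 3 and 4 of C4-2B or 1, 3 and 4 of LNCaP (adjusted p = 0.0501 to 0.171). PSMB5 had 75.1, 101, 108 and 80.4 CPM in LNCaP, against 73.6, 50.8, 86.9 and 99.8 CPM in C4-2B, and was not called (log2 0.23, 95% interval −0.16 to 0.62). PSMB8 and PSMB9 were not called either, at 0.82 (adjusted p = 0.0888) and −0.51 (adjusted p = 0.476).

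**Figure D5:**
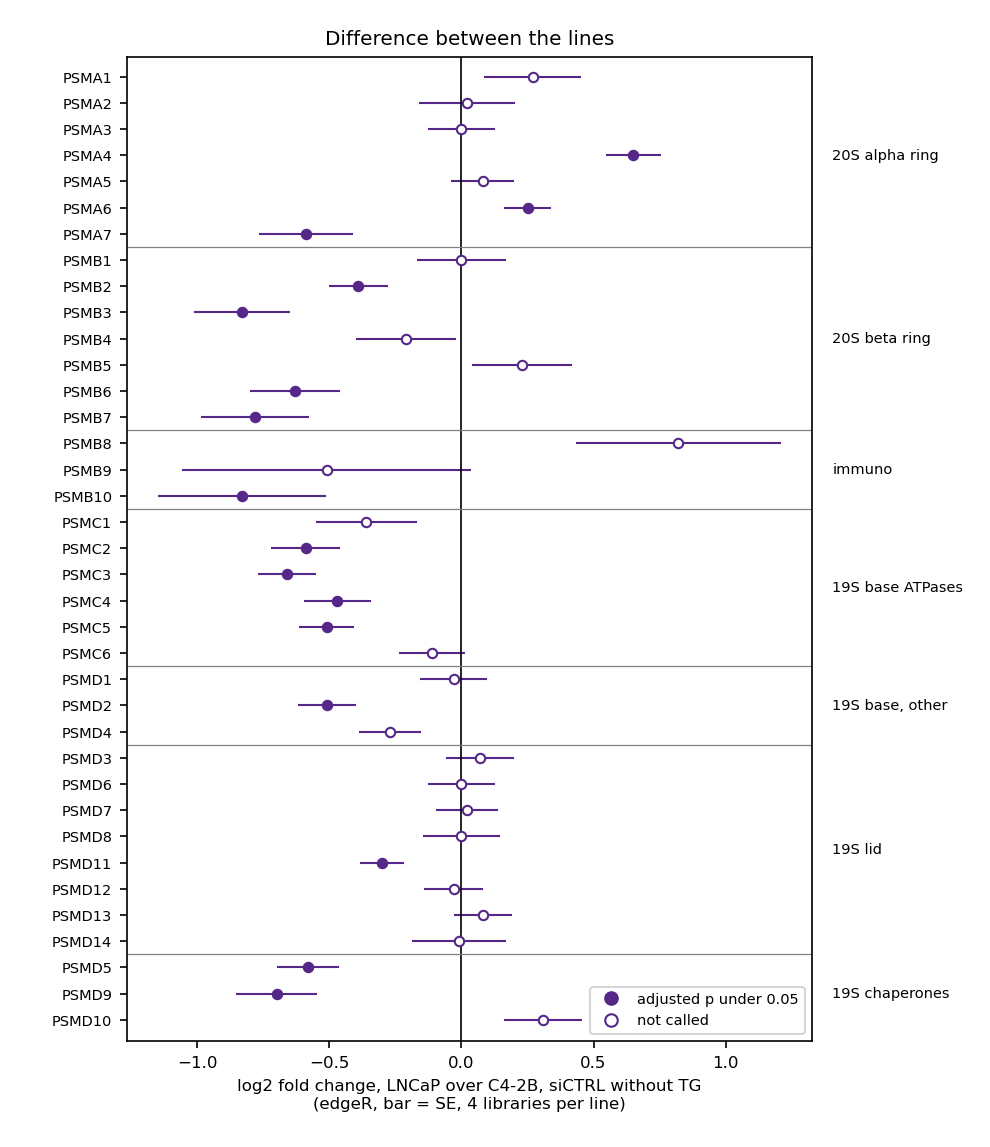
Difference between the lines for each member (rows, by class) as log2 fold change of LNCaP over C4-2B with its standard error, in siCTRL cells without TG, 4 libraries per line. Filled points passed an adjusted p of 0.05: PSMA4 and PSMA6 lie right of 0 and the other 14 left of it.

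Genes that work with the proteasome were counted from lists of 48 genes, of which 47 were tested. They comprise assembly chaperones of the core, activators, bound deubiquitinases, the NRF1 axis, ubiquitin genes and partners in antigen presentation. With TG in siCTRL cells 16 were called higher and 9 lower in LNCaP, against 24.6% and 25.1% of all genes, and 8 higher and 9 lower in C4-2B, against 21.2% and 19.3%. Of these 4 counts only that called higher in LNCaP was above the share of all genes. In the NRF1 axis 5 of 6 were higher in LNCaP, against the 24.6% of all genes, and 3 of 6 in C4-2B, against 21.2%, and 0 were lower. That list held NFE2L1, DDI2, NGLY1, VCP, SYVN1 and SEL1L, so it also counts genes that clear proteins from the ER. The activity of NRF1 was not tested. SEL1L, the scaffold of the ubiquitin ligase that clears proteins from the ER, rose by 1.30 in LNCaP (SE 0.129, edgeR adjusted p = 2.37e-07) and 1.28 in C4-2B (SE 0.139, adjusted p = 2.09e-06). Of the 9 bound deubiquitinases and adaptors, 6 were higher in LNCaP and 3 in C4-2B, to be read against the same shares. ZFAND2A, a stress-induced proteasome adaptor, rose by 1.51 in LNCaP (SE 0.191, adjusted p = 4.03e-06).

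Of the 11 ubiquitin and shuttle genes, 2 were higher and 5 lower in LNCaP, against 24.6% and 25.1% of all genes, and 0 higher and 7 lower in C4-2B, against 21.2% and 19.3%. UBB, a polyubiquitin gene, was lower in C4-2B by −0.92 (SE 0.113, edgeR adjusted p = 6.90e-06). IRF1, an interferon-induced transcription factor known to drive PSMB9, rose by 3.13 in LNCaP (SE 0.270, adjusted p = 4.11e-08) and by 2.12 in C4-2B (SE 0.267, adjusted p = 9.24e-06), while PSMB9 itself was not called. Among the other 9 antigen presentation genes 2 were lower in LNCaP and 1 in C4-2B. TG in siMOCOS cells gave 17 of the 47 higher and 7 lower in LNCaP, against 25.1% and 21.9% of all genes, and 10 higher and 5 lower in C4-2B, against 20.7% and 17.2%, so the C4-2B counts were near or below the background. SEL1L and ZFAND2A were among the 3 genes with the smallest adjusted p in both lines. ZFAND2A rose there by 2.26 in LNCaP (adjusted p = 6.01e-08) and by 1.81 in C4-2B (adjusted p = 2.63e-06).

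After knockdown UCHL5, a deubiquitinase that docks on the 19S particle, had the smallest adjusted p of these genes in both lines, with and without TG. Without TG it fell by 1.14 in LNCaP (log2 −1.14, SE 0.181, edgeR adjusted p = 0.000346) and by 1.37 in C4-2B (log2 −1.37, SE 0.129, adjusted p = 9.05e-07). With TG it fell by 1.04 in LNCaP (log2 −1.04, SE 0.177, adjusted p = 0.000529) and by 1.16 in C4-2B (log2 −1.16, SE 0.127, adjusted p = 5.21e-06). The siMOCOS libraries were all below the siCTRL libraries in each of the 4 comparisons. PSMG1, a chaperone of alpha ring assembly, fell without TG by 0.55 in LNCaP (log2 −0.55, adjusted p = 0.0145) and by 0.63 in C4-2B (log2 −0.63, adjusted p = 0.00323). VCP, the ATPase that extracts ubiquitinated proteins from the ER, was higher after knockdown in TG-treated cells by 0.30 in LNCaP (adjusted p = 0.0170) and by 0.57 in C4-2B (adjusted p = 0.000622).

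Over all 47 genes the knockdown without TG gave 2 higher and 5 lower in LNCaP, against 6.00% and 9.73% of all genes, and 2 higher and 6 lower in C4-2B, against 9.09% and 8.14%. With TG it gave 4 higher and 4 lower in LNCaP, against 11.7% and 10.2%, and 2 higher and 6 lower in C4-2B, against 9.21% and 7.60%. Between the lines 11 were higher and 6 lower in LNCaP, against 21.1% and 20.1%. These shares of the list were near or below the background, apart from those called lower after knockdown in C4-2B. Between the lines, UBA6, a ubiquitin-activating enzyme, was higher in LNCaP than in C4-2B by 0.77 (edgeR adjusted p = 8.51e-07). B2M, the light chain of MHC class I, was higher in LNCaP by 0.95 (adjusted p = 5.74e-06) and VCP by 0.52 (adjusted p = 1.48e-05).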

How the data were processed

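Polyadenylated RNA was sequenced from 32 libraries with a strand-specific kit, per the labels' protocols. The deposited table holds the authors' estimated counts per gene; the submitters' processing notes name Salmon 1.5.2, STAR 2.6.1d, Trim Galore 0.6.7 and cutadapt 3.4, with no role or order. These expected counts, length-scaled by the authors by the deposited table's name, are not whole and were rounded. Libraries held 7507000 to 27089000 counts, and the spread between libraries sets the errors. Each line was fitted alone (16 libraries) with edgeR 4.0.16 in R 4.3.3: filterByExpr, TMM and the quasi-likelihood test, with Benjamini-Hochberg adjustment over 13806 genes in LNCaP and 14127 in C4-2B. Comparisons of the lines used 1 fit of 32 libraries (14628 genes). Fold changes are edgeR's shrunken log2 values, and CPM were TMM-scaled. Alternatives were RLE scaling, library totals, DESeq2 1.42.0, no filter, correction for GC content and length (GENCODE 29), a common fit, leaving out each library, a replicate block and, chosen after seeing the data, leaving out the libraries that stood apart and a block on the pairs of siMOCOS columns.

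Values in every library are given for PSMB5 to PSMB10 and, per comparison, for up to 4 called members in each direction with the largest change among those at a mean of at least 5 CPM, together with members set beside them. PSMC3 and PSMD1 are given in both lines, and UCHL5 is among up to 3 pathway genes named per comparison. PSMD5-AS1 was named after its values were seen. Members and lists were chosen with earlier results of these data known. The fits were tested on simulated data. No 2 libraries of a group agreed within sampling noise.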

Additional observations from a re-analysis of the deposited data

Results flagged for a closer look

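In 9 of 184 groups of 4 libraries tested, 1 library lay far from the other 3 by Dixon's criterion, a share of 4.89%, and chance alone flags about 1 in 20. PSMA6 had 190 CPM in LNCaP siCTRL TG replicate 4, against 219 to 222 CPM in the other replicates. In the same library the 19S subunits summed to 2723 CPM, against 2966 to 3006 CPM. PSMB9 had 1.38 CPM in LNCaP siCTRL TG replicate 2, against 0.815 to 0.839 CPM. PSMD7 had 189 CPM in LNCaP siCTRL replicate 2, against 161 to 165 CPM, and PSMD8 had 192 CPM in LNCaP siMOCOS library 3, against 149 to 151 CPM.

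In C4-2B, PSMB7 had 212 CPM in siCTRL TG replicate 2, against 154 to 158 CPM in the other replicates. The 3 immunoproteasome subunits summed to 3.90 CPM in siCTRL TG replicate 3, against 6.62 to 6.85 CPM. PSMB8 had 2.20 CPM and PSMB9 had 1.75 CPM in siCTRL replicate 4, against 0.872 to 1.06 CPM and 1.02 to 1.06 CPM, so both immunoproteasome genes stood high in the same library.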

How the results depend on the processing

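Of 61 calls of single members, 29 held under every alternative. Counts of called members moved by over 1.5 times as follows, and the cause was not tested. For TG in siCTRL cells of C4-2B (1 higher, 8 lower), 2 were higher with library totals, DESeq2, GC and length correction, the common fit and without siCTRL replicate 2 and siCTRL TG replicate 3, and 1, 5 and 13 were lower with library totals, no filter and GC and length correction. For TG in siMOCOS cells of C4-2B (2, 3), 1 and 4 were higher with library totals and GC and length correction, and 5, 9, 8 and 7 were lower with DESeq2, GC and length correction, the common fit and without those 2 libraries. For siMOCOS without TG in C4-2B (0, 1), 2, 3, 2 and 2 were lower under these 4 settings. For siMOCOS with TG in C4-2B (0, 2), 1, 3 and 1 were higher with DESeq2, GC and length correction and the common fit, and 1 was lower without those 2 libraries.

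For TG in siMOCOS cells of LNCaP (7, 3), 4 were higher with RLE, DESeq2, no filter, GC and length correction and without siCTRL TG replicates 2 and 4, and 3 with the common fit, and PSMC6 reversed to −0.04 with GC and length correction. For siMOCOS without TG in LNCaP (1, 1), 3, 0 and 2 were higher with GC and length correction, the common fit and without those 2 libraries, and 0 and 2 were lower with no filter and GC and length correction. For siMOCOS with TG in LNCaP (3, 2), 5, 0 and 0 were higher with library totals, the common fit and without those 2 libraries, which left 1 lower. Between the lines (2, 14), 1 was higher with RLE, library totals and no filter.

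With single libraries left out, the counts higher and lower in C4-2B ranged over 1 to 2 and 2 to 11 (TG in siCTRL cells), 1 to 2 and 1 to 5 (TG in siMOCOS cells), 0 and 1 to 2 (siMOCOS) and 0 to 1 and 1 to 3 (siMOCOS with TG). The C4-2B count called higher with TG was 2 without siCTRL replicate 4, siCTRL TG replicate 3 or siMOCOS TG library 1 or 2. In LNCaP the ranges were 4 to 6 and 2 to 6, 3 to 7 and 2 to 4, 0 to 2 and 0 to 4, and 0 to 4 and 1 to 3 in the same order, the 2 higher after siMOCOS being without siCTRL TG replicate 4. Between the lines they were 1 to 4 and 13 to 15. Interactions and differences in response stayed at 0.

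Replicate numbers did not pair the siCTRL libraries (correlations −0.371 to 0.236). A replicate block gave 1 higher and 1 lower in C4-2B and 7 and 4 in LNCaP. The numbers 1 to 4 of the siMOCOS columns are not those of the labels, so they pair no siMOCOS library with a siCTRL one. The difference between columns 3 and 4 and columns 1 and 2 was shared by TG and vehicle (r = 0.429 over 14127 genes in C4-2B and 0.448 over 13806 in LNCaP). A replicate block on these column pairs was chosen after seeing the data. It takes the difference between the pairs out of the error, so it cannot test the calls with the pairs as replicates. The block kept every call within a line. Under it 2 were higher for TG in siCTRL cells of C4-2B, 5 lower for TG in siMOCOS cells of C4-2B, 4 lower for siMOCOS without TG in each line, 1 higher and 5 lower for siMOCOS with TG in C4-2B, and 6 higher for siMOCOS with TG in LNCaP. PSMB8, PSMB9 and PSMB10 rest on low counts, and what depth does to their errors was not tested.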

Other observations

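PSMD14, the lid subunit that removes ubiquitin chains, was chosen here after its values were seen, because its siMOCOS libraries spread widely in both lines. It had 51.5, 45.1, 61.2 and 69.6 CPM in LNCaP siMOCOS cells with TG, 34.7, 37.3, 50.9 and 56.7 CPM in LNCaP siMOCOS cells without TG, 47.3, 40.7, 69.2 and 68.6 CPM in C4-2B siMOCOS cells with TG, and 37.2, 38.3, 57.8 and 54.8 CPM in C4-2B siMOCOS cells without TG. In each group libraries 1 and 2 were lower than libraries 3 and 4. Which siRNA a column holds is not given, so the 4 libraries were kept as 1 group. PSMD14 was not called after knockdown (edgeR log2 −0.33, adjusted p = 0.151 in LNCaP and −0.41, adjusted p = 0.166 in C4-2B, without TG).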
